A study of Homo sapiens with 31 samples.

Results

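The genes described here encode the nuclear pore complex and the machinery that carries cargo through it. They are 36 gene names, matched by name in each deposited count table, out of 56269 names in all. All 36 had counts and all passed the filter on low counts, so the statements below cover every member. By role they fall into the outer ring or Y complex (9 genes), the inner ring (5), the transmembrane ring (3), the central channel (3), the cytoplasmic side with messenger RNA export (6), the nuclear basket (3), the transport receptors (4) and the Ran cycle (3).

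The nuclear pore complex is a large ring-shaped channel in the nuclear envelope, built from many copies of proteins called nucleoporins. Importins and exportins carry cargo through a meshwork of phenylalanine-glycine (FG) repeats, and the GTPase Ran gives the traffic its direction: RCC1 loads Ran with GTP in the nucleus and RANGAP1 triggers GTP hydrolysis in the cytoplasm. Dividing cells need new pores both as the nucleus grows in interphase and when the envelope reforms after mitosis, and several nucleoporins, importins and Ran regulators also act on the spindle and kinetochores.

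Messenger RNA was measured in MCF10A, an established, non-transformed line of human breast epithelium, as it entered the cell cycle from quiescence. At 0 h the cells had been without serum, EGF and insulin for 2 to 3 days and had received no drug. Released cells got full medium (horse serum, EGF and insulin) with 0.1% DMSO as vehicle, collected at 3, 6, 9, 12, 15 and 24 h, or with 1 µM palbociclib, collected at 9, 12, 15 and 24 h. Palbociclib inhibits CDK4 and CDK6, the kinases that work with D cyclins early in G1. Starved and released cells alike were in medium with hydrocortisone and cholera toxin. Each of the 11 groups had 3 libraries, except the DMSO and palbociclib groups at 24 h, which had 2 (replicates 1 and 3). The labels do not call the replicates separate cultures. P-values here therefore gauge differences against library-to-library spread, part or all of which may be technical.

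The 31 libraries held 10342358 to 20878364 counts, and the counts of replicates were spread more widely than counting error alone gives in all 11 groups (chi-square per degree of freedom 3.3 to 17.84). On the main axis of variation within groups, which held 27.5% of that variance, replicate 3 scored −18.49 to −7.51 at 0 h and with DMSO at 3 to 15 h, but 7.84 to 27.16 with DMSO at 24 h and in the 4 palbociclib groups. In the starved group and the 5 vehicle groups up to 15 h, replicate 2 lay opposite its replicate 3, with scores between 12.01 and 24.83. With palbociclib, replicate 1 scored −15.01, 5.05 and −31.64 at 9, 12 and 15 h, and replicate 2 scored 3.39, −12.89 and 4.48. At 24 h the 2 libraries of a group mirror each other by construction (replicate 1 at −11.35 with DMSO and −25.41 with palbociclib). Their scores therefore cannot show which of the 2 is displaced. Counts without the 5 libraries of replicate 3 with positive scores are given with the drug comparisons. Leaving them out, or leaving out any 1 library at 24 h, leaves 1 library in a 24 h group. Such refits assume that this library varies like those of the other groups, which supply the spread. Each of the 10 basal and epithelial marker genes reached 1 CPM (counts of a gene scaled to a common library size) in at least 1 library. Together they summed to 12894 to 20464 CPM per library. Luminal markers summed to 285 to 750 CPM (285 to 303 at 0 h and 487 to 523 at 24 h with either treatment), with PGR and KRT19 under 1 CPM. Fibroblast markers summed to 15.3 to 85.5 CPM, highest at 0 h (74.5 to 85.5) and at most 18.1 at 24 h with either treatment. COL1A2, COL3A1, PDGFRB and LUM were under 1 CPM in every library, so COL1A1 and DCN held most of the sum at 0 h. Blood and endothelial markers summed to 7.0 to 39.3 CPM (34.3 to 39.0 at 0 h and 7.0 to 8.9 at 24 h). PTPRC, CD3E, HBB, CDH5 and VWF were under 1 CPM in every library, so CD14 and PECAM1 held most of the sum at 0 h. The part of these marker levels in the results below was not tested.

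Nuclear pore and transport genes took up a growing share of the messenger RNA after release with vehicle. Together the 36 genes made up 0.337% to 0.346% of counts in the starved libraries and 0.354% to 0.356% after 3 h. The share was 0.439% to 0.447% after 6 h, 0.473% to 0.49% after 9 h and 0.495% to 0.516% after 12 h. It reached 0.526% to 0.535% after 15 h and 0.655% to 0.672% after 24 h. The libraries of each later vehicle time lay above all libraries of the time before it. With palbociclib the share was 0.455% to 0.469% at 9 h, 0.455% to 0.47% at 12 h, 0.445% to 0.458% at 15 h and 0.47% to 0.472% at 24 h, close to its 6 h to 9 h vehicle level throughout. KPNA2, the most changed member, did not carry the difference alone: without it the share at 24 h was 0.604% to 0.619% with DMSO and 0.456% to 0.457% with palbociclib. These are shares of the counted RNA in bulk samples, in which fewer cells expressing a gene and less RNA per cell cannot be told apart, and an amount per cell was not measured.

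**Figure D1:**
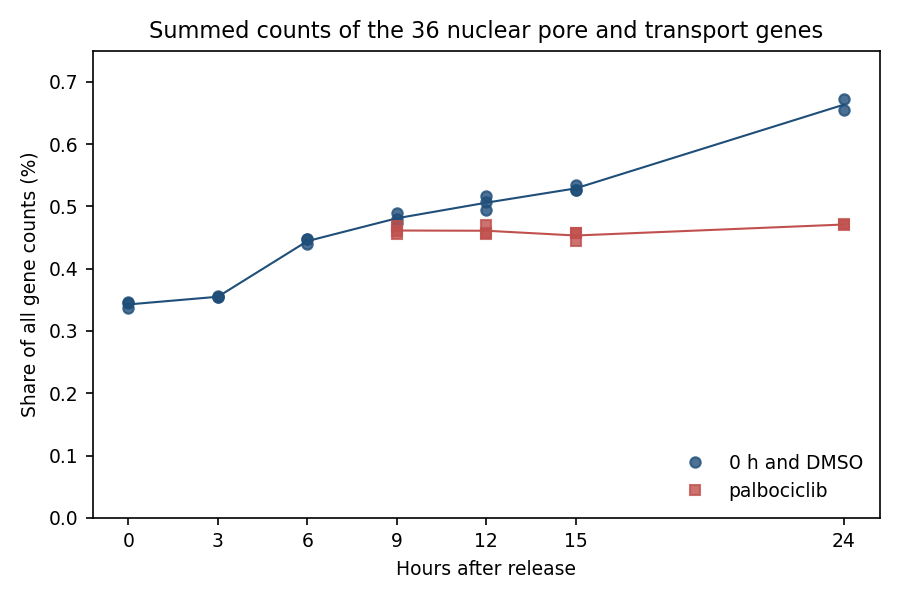
Share of all counts taken by the 36 nuclear pore and transport genes (vertical axis, percent) against hours after release (horizontal axis), one point per library and lines through the group means, for DMSO and palbociclib. The vehicle libraries climb from 0.337% to 0.346% at 0 h to 0.655% to 0.672% at 24 h, while the palbociclib libraries stay between 0.445% and 0.472%.

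Between 0 h and 24 h with vehicle all 36 members rose, some from 3 h on and some after an early fall. In the text below, a gene rose or fell when its adjusted p in edgeR's quasi-likelihood test was under 0.05. Changes are log2 fold changes with a standard error (SE), and levels are CPM. Overlap of libraries is described for single members, and the share of all genes without overlap was not counted. At 3 h against 0 h, 18 members rose and 9 fell, where 27.8% of all 15787 tested genes were called higher and 34.4% lower. At 6 h, 26 rose and 5 fell (34.1% and 39.5% of all genes). The early calls therefore went in both directions within the gene set, and the falls at 3 h were those of XPO1, GLE1, AAAS, NUP133, RCC1, NUP37, NUP210, NUP43 and TPR.

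At 9 h, 30 members were higher than at 0 h and 3 lower (35.3% and 39.8% of all genes). At 12 h, 31 were higher and 2 lower (36.1% and 39.6%). At 15 h, 33 were higher and none lower (37.4% and 39.3%), while 1 was lower at an unadjusted p under 0.05 and none by DESeq2. At 24 h, 36 were higher and none lower (36.7% and 38.9%), also by DESeq2, with none lower at an unadjusted p under 0.05.

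The typical size of the change grew with time as well. Over the members, the median log2 change from 0 h was 0.152, 0.471 and 0.520 after 3, 6 and 9 h, and 0.647, 0.678 and 1.051 after 12, 15 and 24 h. Over all tested genes the median stayed between −0.103 and −0.056. At 24 h, 19 members were at least 2-fold higher, against 16.4% of all genes. The 6 comparisons share the 0 h libraries and so are not independent of one another.

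**Figure D2:**
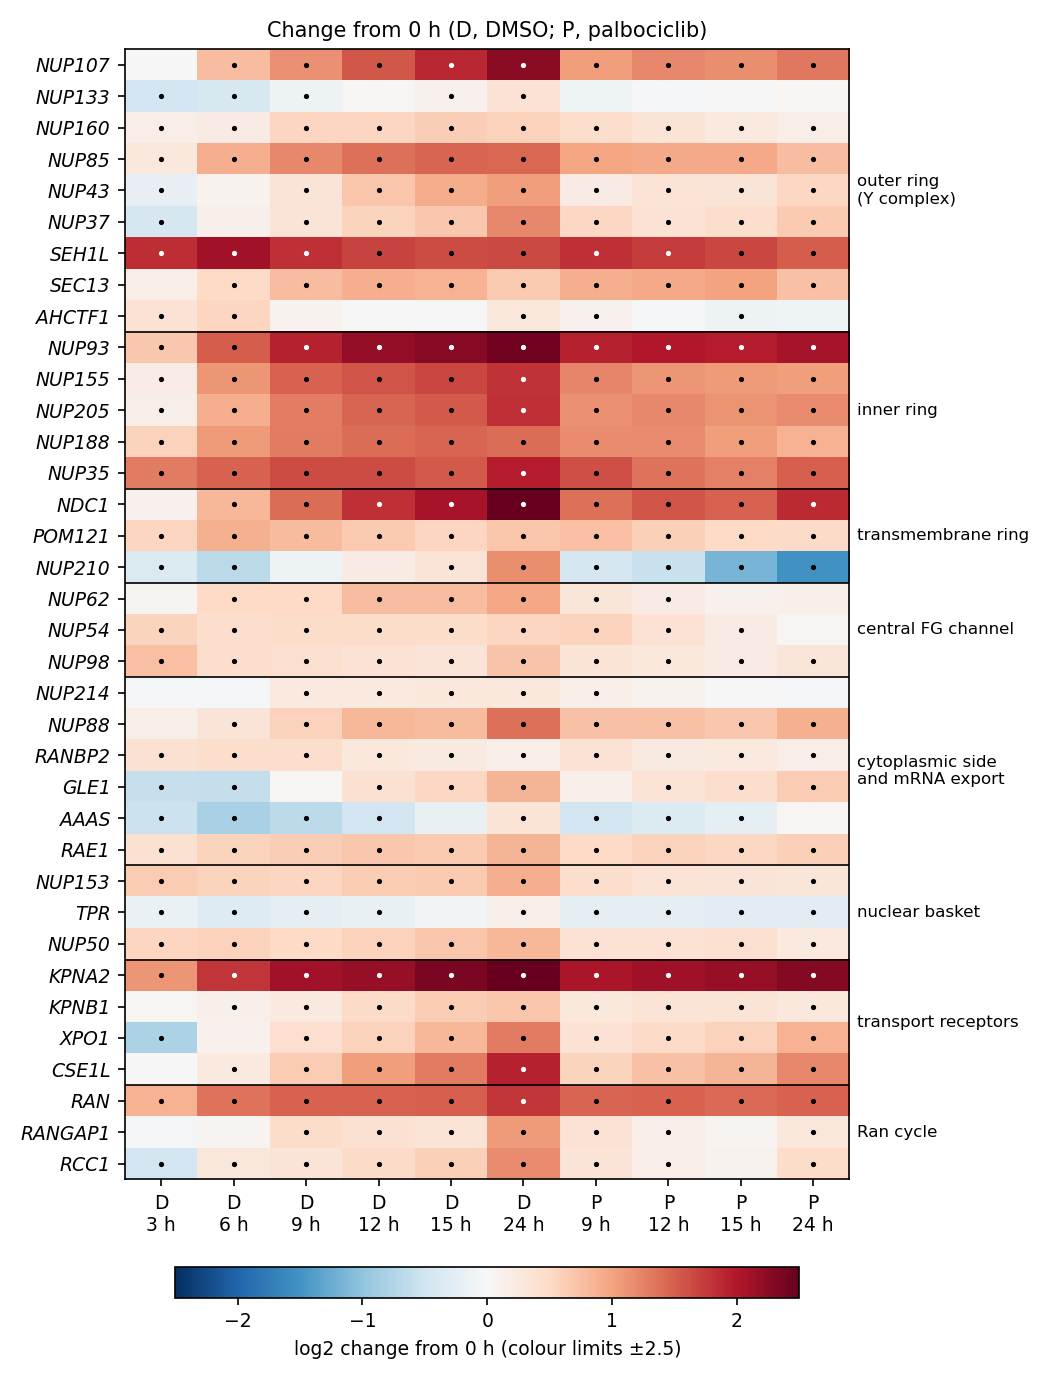
Log2 fold change from 0 h (colour, limits at 2.5 either way) of each of the 36 genes (rows, grouped by role) in the 6 DMSO and 4 palbociclib groups (columns), with a dot where the adjusted p was under 0.05. KPNA2, NDC1, NUP93 and NUP107 have the strongest colours at DMSO 24 h, and XPO1, GLE1, AAAS and NUP133 are blue at DMSO 3 h before turning red later.

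Promoter sequence is shown for 4 members with contrasting courses: KPNA2 and NDC1, which climbed furthest by 24 h, RAN, which rose early, and NUP210, the member that fell most with palbociclib. Each line gives the 250 bases before the RefSeq transcription start (GRCh38.p14), 5′ to 3′ on the gene's strand. The windows are KPNA2 at chr17:68035485-68035734 (plus), NDC1 at chr1:53838297-53838546 (minus), RAN at chr12:130871816-130872065 (plus) and NUP210 at chr3:13420323-13420572 (minus). In the annotation used for counting, KPNA2 starts at 68035519, RAN at 130871879 and NDC1, on the minus strand, at 53838860. The windows of KPNA2, RAN and NDC1 therefore lie partly or wholly within the counted genes, and distances given below hold for the RefSeq starts. Capitals mark letters of the cell cycle homology region (CHR), the CCAAT box or the E-box, on either strand.
KPNA2: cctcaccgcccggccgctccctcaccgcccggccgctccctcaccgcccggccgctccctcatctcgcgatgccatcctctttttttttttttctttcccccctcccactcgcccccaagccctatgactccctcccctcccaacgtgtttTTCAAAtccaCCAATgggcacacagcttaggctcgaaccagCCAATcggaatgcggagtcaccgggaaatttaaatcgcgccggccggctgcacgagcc
NDC1: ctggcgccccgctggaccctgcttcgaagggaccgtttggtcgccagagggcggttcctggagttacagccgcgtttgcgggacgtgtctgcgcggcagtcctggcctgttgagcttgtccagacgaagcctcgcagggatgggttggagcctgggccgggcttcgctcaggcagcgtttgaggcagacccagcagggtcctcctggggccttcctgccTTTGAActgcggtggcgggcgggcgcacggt
RAN: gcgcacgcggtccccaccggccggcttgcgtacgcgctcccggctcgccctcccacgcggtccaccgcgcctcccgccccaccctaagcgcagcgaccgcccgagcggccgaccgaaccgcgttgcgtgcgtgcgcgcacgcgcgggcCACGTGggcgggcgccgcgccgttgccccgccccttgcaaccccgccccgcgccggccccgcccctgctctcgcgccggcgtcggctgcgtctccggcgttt
NUP210: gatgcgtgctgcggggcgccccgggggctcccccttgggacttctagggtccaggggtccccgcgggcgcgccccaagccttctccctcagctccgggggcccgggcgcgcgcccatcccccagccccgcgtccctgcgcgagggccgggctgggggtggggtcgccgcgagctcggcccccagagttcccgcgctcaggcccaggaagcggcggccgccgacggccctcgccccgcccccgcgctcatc

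In KPNA2 the capitals are a CHR read on the reverse strand (TTCAAA at −99) and CCAAT boxes at −89 and −58, counted from the start. In NDC1 they are a CHR (TTTGAA at −31), and in RAN an E-box (CACGTG at −102). The NUP210 window held none of the searched letters. RefSeq windows were found for 32 of the 36 members (not for NUP43, AHCTF1, GLE1 and KPNB1). The 4 E2F site spellings searched (TTTGGCGC, TTTCGCGC, TTTCCCGC and TTTGCCGC, both strands) occurred in 0 of these 32, against 2.8% of 27305 promoters. TTTGAA occurred in 7 members (21.9% against 13.6% of all promoters), CCAAT in 12 (37.5% against 33.0%) and CACGTG in 3 (9.4% against 6.5%; NUP188, NUP50 and RAN). The members with TTTGAA started their rise at different times. NUP205, NUP35, NUP98, NUP153 and KPNA2 were higher from 3 h on, NDC1 from 6 h and NUP37 from 9 h. A link between letters and timing was not tested. Such matches describe letters in a window and are not measured binding sites.

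The outer ring, or Y complex, is the scaffold that coats both faces of the pore, and its 9 genes took varied courses. SEH1L, a Y complex subunit that also belongs to the GATOR2 complex of nutrient signalling, had the largest rise of all members at 3 h. It stood at 31.8, 45.2 and 34.3 CPM at 0 h, at 132, 143 and 126 CPM at 3 h and at 164, 164 and 151 CPM at 6 h. The 3 h libraries were all above the 0 h libraries (log2 1.85 ± 0.08, adjusted p = 1.1e-18). After its peak at 6 h the mean was lower, at 116 CPM at 15 h and 117 ± 1.3 (SD, n = 2) CPM at 24 h.

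NUP107, the Y complex subunit often used to mark the scaffold, was among the members that rose from 6 h on. Its levels were 19.1, 22.7 and 17.4 CPM at 0 h, 73.0, 73.9 and 71.0 CPM at 15 h and 91.5 and 96.6 CPM at 24 h. No library of these groups overlapped, and the change at 24 h was 2.25 ± 0.07. At 3 h its mean, 19.7 CPM, equalled that at 0 h. NUP133, the Y complex subunit that helps the scaffold sense membrane curvature, fell first: 150.4, 157 and 142 CPM at 0 h and 107, 107 and 108 CPM at 3 h (log2 −0.48 ± 0.05). At 24 h it stood at 194 and 192 CPM (log2 0.37), while its smaller rise at 15 h was lost without replicate 3 of 0 h and turned to −0.001 under scaling by library totals.

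AHCTF1, also called ELYS, which recruits the Y complex to chromatin after mitosis, was highest at 6 h. It measured 253, 243 and 263 CPM at 0 h and 360.5, 377 and 361 CPM at 6 h, had a mean of 253 CPM at 12 h, and reached 307 and 308 CPM at 24 h. SEC13, which is shared with the COPII coat of secretory vesicles, had its highest vehicle mean at 12 h (134 CPM, from 71.1 ± 8.6 at 0 h, SD, n = 3). NUP37 (−0.42) and NUP43 (−0.21), also in the Y complex, fell at 3 h and at 24 h were up by 1.21 and 1.05.

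The inner ring links the central channel to the outer scaffold. All 5 genes rose at 3 h and were higher at every later vehicle time, and their median at 24 h (1.833) was the highest of the 8 roles. NUP93, the hub of this ring, had 17.3, 20.0 and 17.7 CPM at 0 h and 98.1 and 96.7 CPM at 24 h (log2 2.41 ± 0.07). Its mean was already 52.7 CPM at 6 h. NUP35, a membrane-binding member of the ring, went from 6.61, 5.71 and 6.57 CPM at 0 h to 17.9, 15.3 and 13.5 CPM at 3 h (log2 1.31 ± 0.13). NUP205, a large scaffold protein, went from 62.4, 67.2 and 62.6 CPM to 237 and 220.4 CPM at 24 h (log2 1.83 ± 0.05). In each of these 3 genes the libraries compared did not overlap. The 3 h rise of NUP205 was small (log2 0.14, adjusted p = 0.019) and turned to −0.025 when libraries were scaled by their totals alone. That of NUP155 was lost in 5 of 13 alternatives, among them leaving out replicate 1 or 2 of 0 h or replicate 3 of DMSO at 3 h, and that of NUP205 in 4, among them leaving out replicate 1 or 3 of 0 h.

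Among the transmembrane nucleoporins, NDC1, which anchors the pore in the envelope, had the second largest change of all members. Its levels were 25, 26.6 and 23.0 CPM at 0 h, 107, 104 and 101 CPM at 15 h and 163 and 156 CPM at 24 h, with no overlap between these groups (24 h against 0 h, log2 2.68 ± 0.08). NUP210, or gp210, a transmembrane nucleoporin known for its tissue-dependent expression, was the lowest member per length in every group examined and first fell. It stood at 7.79, 6.35 and 8.06 CPM at 0 h, 4.91, 4.87 and 3.94 CPM at 6 h, 9.80, 9.21 and 8.64 CPM at 15 h and 16.0 and 17.0 CPM at 24 h. The 6 h libraries lay below all 0 h libraries (−0.68) and the 24 h libraries above them (1.16 ± 0.15). At 3 h its fall was borderline (−0.35 ± 0.15, adjusted p = 0.049). POM121 had its highest mean, 77.6 CPM, at 6 h. POM121 shares 18.9% of its exonic bases with other annotated genes and has near-identical copies in the genome, so its counts are uncertain.

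Of the channel nucleoporins, whose FG repeats form the permeability barrier, NUP98 and NUP54 had their highest vehicle means at 3 h. NUP98 measured 116, 131 and 129 CPM at 0 h, 208, 208 and 216 CPM at 3 h and 219 and 195 CPM at 24 h, with a mean of 157 CPM at 15 h between them. NUP62, the core FG nucleoporin, went from 50.1, 46.2 and 42.4 CPM at 0 h to 90.0 and 91.6 CPM at 24 h. It shares 21.1% of its exonic bases with other genes, and reads were not assigned by strand.

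The cytoplasmic side carries the filaments and the messenger RNA export factors, and had the smallest median at 24 h of the 8 roles (0.597). GLE1, which activates the helicase that releases messenger RNA from the pore, fell and then rose. Its libraries held 38.4, 40.2 and 35.1 CPM at 0 h, 23.4, 27.7 and 24.4 CPM at 3 h, 24.1, 25.6 and 25.6 CPM at 6 h and 68.0 and 69.4 CPM at 24 h. Both early groups lay wholly below 0 h (3 h, −0.58 ± 0.07) and the 24 h group wholly above it.

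AAAS, or aladin, the nucleoporin mutated in triple A syndrome, took a similar early course: 34.4, 36.1 and 33.4 CPM at 0 h against 18.6, 20.1 and 20.2 CPM at 6 h (−0.82 ± 0.09, adjusted p = 3.1e-09). At 24 h it stood at 40.6 and 47.0 CPM (0.34). RANBP2, the SUMO ligase of the cytoplasmic filaments, changed least on this side at 24 h (0.17, adjusted p = 0.026), after a highest mean of 296 CPM at 9 h. Its near-identical RGPD copies make its counts uncertain. NUP88, a filament nucleoporin often elevated in tumours, rose from 24.8, 25.6 and 25.3 CPM to 65.4 and 65.4 CPM at 24 h (1.37), with 18.7% of its exonic bases shared with other genes.

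In the nuclear basket, the filaments on the inner face of the pore, NUP153 and NUP50 rose from 3 h on while TPR did not. NUP153 went from 82.6, 87.0 and 87.4 CPM at 0 h to a mean of 133 CPM at 3 h and to 163 and 157 CPM at 24 h. TPR, the long coiled-coil protein of the basket, had 359.6, 348 and 376 CPM at 0 h and 295, 286 and 291 CPM at 6 h, without overlap (−0.31). Its 403 and 395 CPM at 24 h gave the smallest change of all members (0.14, adjusted p = 0.048). The 24 h calls of TPR, RANBP2, NUP214 and AAAS were the 4 of 36 that did not hold under every alternative setting tried.

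The transport receptors held the largest change of all. KPNA2, or importin alpha 1, the adaptor that recognises classical nuclear localisation signals, had 28.0, 32.4 and 31.7 CPM at 0 h, 156, 161 and 156 CPM at 15 h and 540.0 and 519 CPM at 24 h. These groups are far apart: the 24 h level was 17.2-fold that of 0 h (log2 4.11 ± 0.08, adjusted p = 3.1e-28). Much of it came between 15 and 24 h. The gene spans chr17:68035519-68046842 on the plus strand (GRCh38), and near-identical copies elsewhere in the genome make its counts, like those of RAN, uncertain.

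CSE1L, the exportin that returns importin alpha to the cytoplasm, went from 119, 133 and 122 CPM at 0 h to 467 and 479 CPM at 24 h (1.92 ± 0.06). Its mean at 3 h, 124 CPM, was still close to the 125 ± 7.1 CPM (SD, n = 3) of 0 h. XPO1, or CRM1, the main exportin for nuclear export signals, dropped before it rose. It measured 191, 171 and 187 CPM at 0 h, 112, 103 and 103 CPM at 3 h and 462 and 442 CPM at 24 h. The 3 groups did not overlap, with −0.78 ± 0.05 at 3 h (adjusted p = 7e-15) and 1.31 at 24 h. KPNB1, importin beta, the receptor that pairs with importin alpha, was already abundant at 0 h (414, 461 and 430.1 CPM) and reached 704 CPM in both 24 h libraries.

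The Ran cycle genes did not move together at first. RAN rose at 3 h, from 173, 187 and 154 CPM to 309.7, 346 and 282 CPM (0.87 ± 0.07), and levelled at means of 440.1 to 479.9 CPM between 6 and 15 h before reaching 592 and 597 CPM at 24 h. RCC1, the nucleotide exchange factor, fell from 50.0, 50.1 and 49.1 CPM to 36.5, 37.4 and 33.0 CPM at 3 h (−0.48 ± 0.07) and stood at 108 and 116 CPM at 24 h. RANGAP1, the GTPase activator, began at 119.9, 126 and 117 CPM, had a mean of 119 CPM at 3 h and 126 CPM at 6 h, and reached 255 and 248 CPM at 24 h (1.06). The 3 h libraries thus lay above those at 0 h for RAN and below them for RCC1.

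Sorted by the first vehicle time from which a gene was higher than at 0 h and stayed so, 17 members started at 3 h, 8 at 6 h, 5 at 9 h, GLE1 at 12 h, NUP133 and NUP210 at 15 h and AHCTF1, AAAS and TPR at 24 h. The highest vehicle mean fell at 24 h in 26 members. It fell earlier in NUP54 and NUP98 (3 h), SEH1L, AHCTF1 and POM121 (6 h), RANBP2 (9 h), SEC13 (12 h) and NUP160, NUP85 and NUP188 (15 h).

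**Figure D3:**
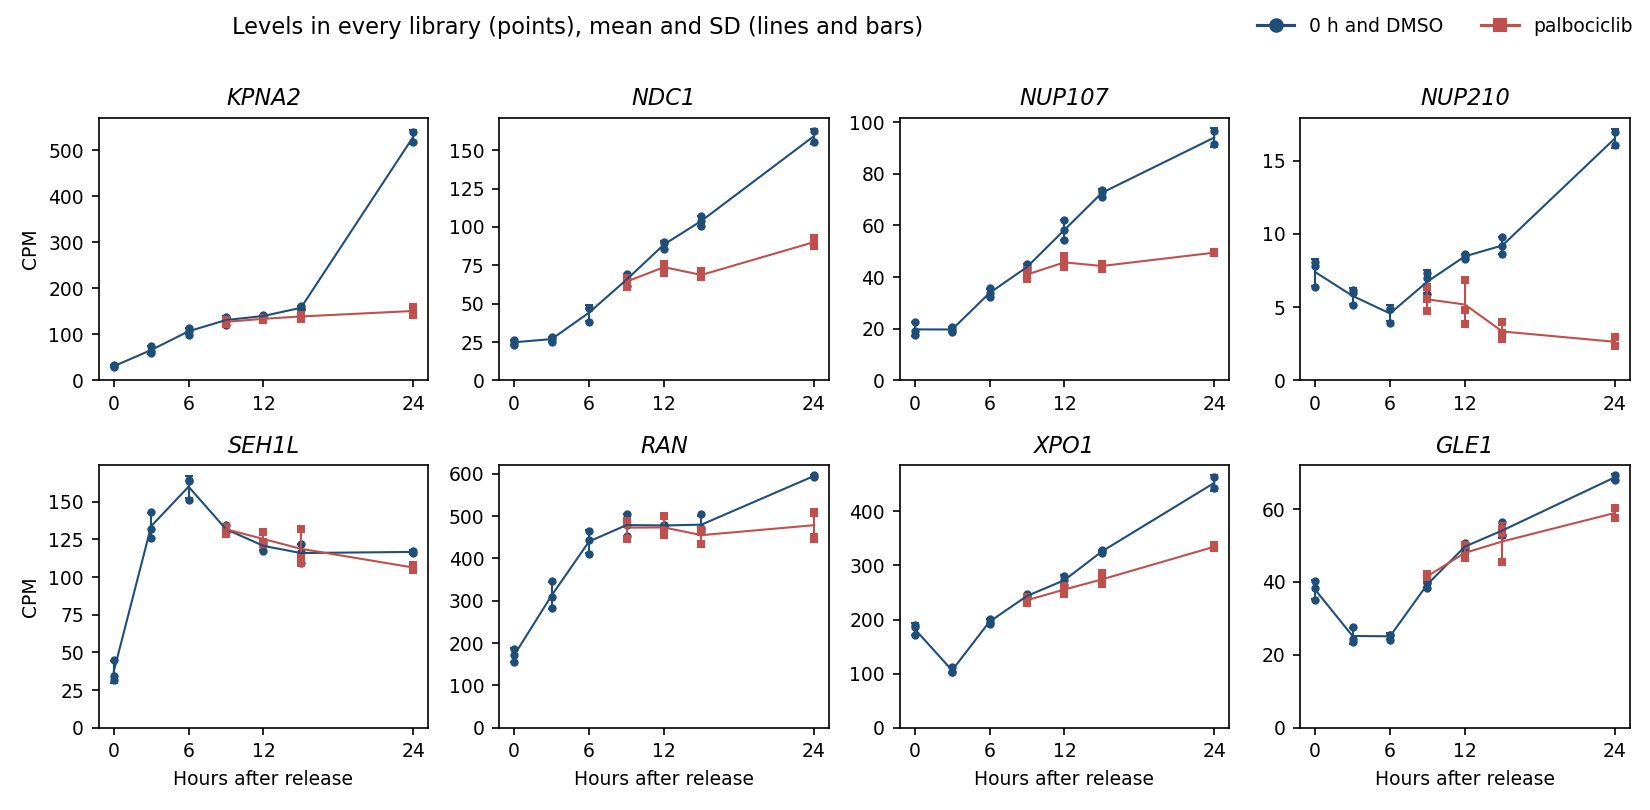
Level in CPM (vertical axis, each panel from 0) against hours after release for KPNA2, NDC1, NUP107, NUP210, SEH1L, RAN, XPO1 and GLE1, one point per library and lines through the group means, for DMSO and palbociclib. KPNA2 separates by treatment at 24 h (540.0 and 519 CPM against 143 and 158), NUP107 and NUP210 separate from 12 h on, and SEH1L and RAN rise early, with RAN lower with palbociclib at 24 h (451 and 506 CPM against 592 and 597).

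The last vehicle step, from 15 to 24 h, added to most members. Of the 36, 21 rose and none fell, against 16.5% and 13% of all genes (24 higher and 1 lower at an unadjusted p under 0.05, and 21 and 0 by DESeq2). KPNA2 led with 1.75 ± 0.07 (adjusted p = 6.7e-19), followed by NUP210 (0.84), RANGAP1 (0.72), CSE1L (0.62) and NDC1 (0.61). With palbociclib the same interval gave 7 rises and 2 falls (11.2% and 9.31% of all genes). The rises were NDC1 (0.39), RCC1 (0.37), CSE1L (0.35), XPO1 (0.29), RANGAP1 (0.22), GLE1 (0.20) and NUP43 (0.20), and the falls SEC13 (−0.28) and NUP188 (−0.17). Leaving out replicate 3 of palbociclib at 15 h or at 24 h gave 4 rises, and leaving out replicate 1 or 3 of palbociclib at 24 h gave 0 or 1 falls. KPNA2 did not pass the test there (0.12, adjusted p = 0.28).

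Palbociclib lowered nuclear pore and transport genes relative to vehicle from 12 h on, and no member rose with it at any time. At 9 h none rose and none fell by edgeR, where 0.108% of all genes were called higher and 1.07% lower. At that time 1 member was higher and 6 lower at an unadjusted p under 0.05, and DESeq2 called none either way. NUP155 alone fell when replicate 2 of DMSO at 9 h was left out. At 12 h, 15 fell and none rose (4.81% and 0.823% of all genes), with 20 lower and none higher at an unadjusted p under 0.05 and 15 and 0 by DESeq2. Leaving out replicate 2 of palbociclib at 12 h gave 10 falls, with the calls of NUP160, NUP188, NDC1, NUP50 and RANGAP1 lost.

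At 15 h, 22 fell and none rose (8.79% and 2.15% of all genes), with 26 lower and 1 higher at an unadjusted p under 0.05 and 20 and 0 by DESeq2. At 24 h, 30 fell and none rose (12.3% and 5.76%), with 33 lower and none higher at an unadjusted p under 0.05 and 29 and 0 by DESeq2. The median difference over the members was −0.046, −0.174, −0.255 and −0.468 after 9, 12, 15 and 24 h, while over all genes it lay between 0.004 and 0.015. Without the 5 libraries described above, 0, 11, 18 and 28 members fell at the 4 times, where the 28 compare 1 library with 1 at 24 h.

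Most of these differences were under 2-fold. NUP210 alone passed 2-fold at 15 h and NUP210 and KPNA2 at 24 h, where 2.66% and 3.22% of all genes did. Of the members that fell, 15 were first called at 12 h, 7 at 15 h (AHCTF1, NUP93, NUP54, NUP214, TPR, KPNB1 and XPO1) and 8 at 24 h (NUP133, NUP37, NUP35, NUP98, NUP88, GLE1, KPNA2 and RAN). The 15 h call of NUP54 was lost in 9 of 13 alternatives, DESeq2 among them, and that of NUP214 in 2. SEH1L, SEC13, POM121, RANBP2, AAAS and RAE1 were never called.

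**Figure D4:**
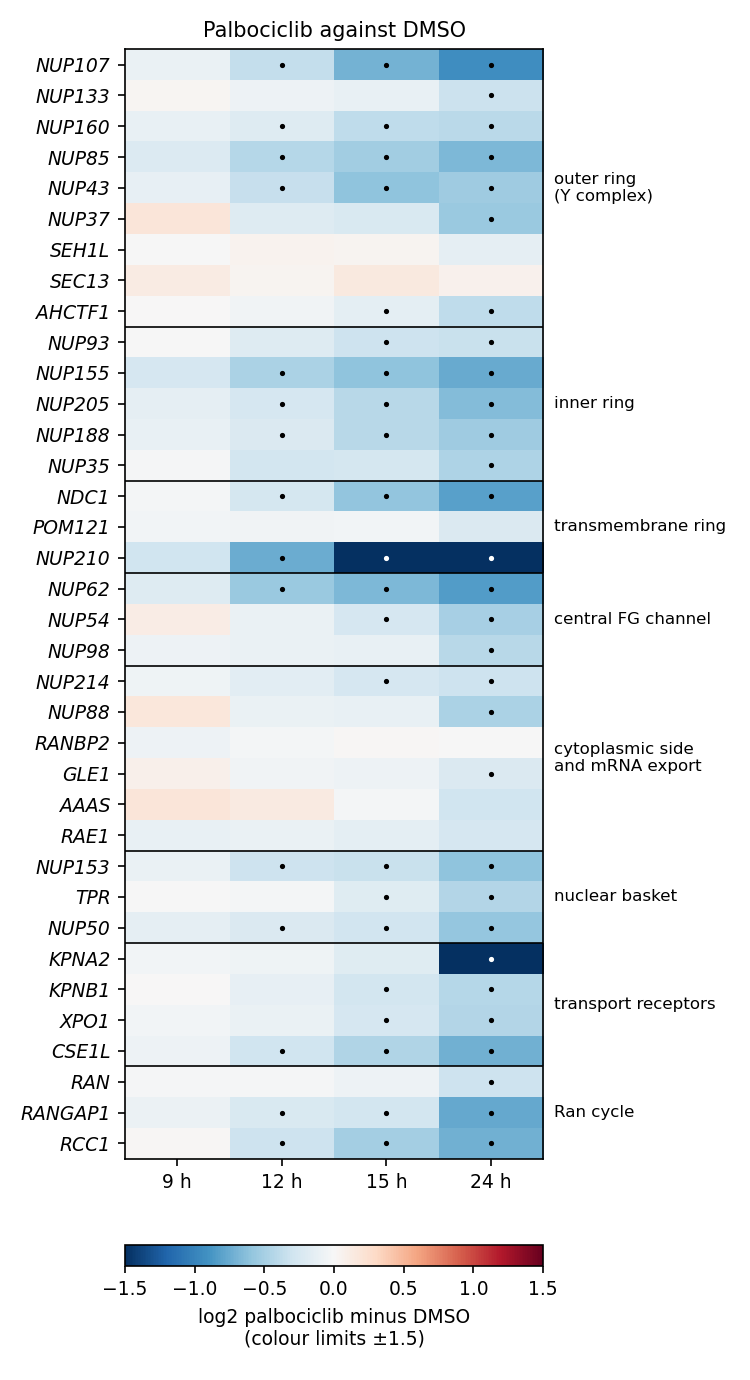
Log2 difference of palbociclib from DMSO (colour, limits at 1.5 either way) for each of the 36 genes (rows, grouped by role) at 9, 12, 15 and 24 h (columns), with a dot where the adjusted p was under 0.05. No gene has a dot at 9 h, and 15, 22 and 30 have one at 12, 15 and 24 h, with NUP210 and KPNA2 the darkest at 24 h.

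In the outer ring, 4, 5 and 7 of 9 genes fell at 12, 15 and 24 h. NUP107 was the most changed. At 12 h it had 62.2, 54.4 and 58.2 CPM with DMSO and 48.0, 44.0 and 45.1 CPM with palbociclib (−0.35), and at 15 h 73.0, 73.9 and 71.0 CPM against 43.2, 44.7 and 45.0 CPM (−0.71 ± 0.06, adjusted p = 2.6e-10). At 24 h the libraries held 91.5 and 96.6 CPM against 49.7 and 49.3 CPM (−0.93 ± 0.08, adjusted p = 4.6e-11). The groups did not overlap at any of these times. The palbociclib means were 41.0, 45.7, 44.3 and 49.5 CPM at 9, 12, 15 and 24 h. NUP43 (−0.61 at 15 h) and NUP85 (−0.67 at 24 h) followed.

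SEH1L and SEC13 were the outer ring genes never called. SEH1L had 116 and 118 CPM with DMSO and 108 and 104 CPM with palbociclib at 24 h. Its difference was −0.14, with a 95% interval of −0.32 to 0.05 (adjusted p = 0.38). For SEC13 the difference at 24 h was 0.07 (−0.11 to 0.24, adjusted p = 0.68).

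In the inner ring, 3, 4 and 5 of 5 genes fell at 12, 15 and 24 h, with a median of −0.532 at 24 h. NUP155, which helps fuse the membranes during pore assembly, fell by 0.47 at 12 h, 0.61 at 15 h and 0.76 at 24 h on the log2 scale. NUP205 had 237 and 220.4 CPM with DMSO and 139.8 and 151 CPM with palbociclib at 24 h (−0.65). NUP93 differed less, with 98.1 and 96.7 CPM against 74.7 and 79.9 CPM, although its libraries did not overlap either.

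The transmembrane genes gave the largest drug difference of any member. NUP210 had 8.29, 8.48 and 8.65 CPM with DMSO at 12 h and 6.89, 3.84 and 4.81 CPM with palbociclib (−0.75 ± 0.15, adjusted p = 0.0012). At 15 h it had 9.80, 9.21 and 8.64 CPM against 4.01, 2.79 and 3.22 CPM (−1.49 ± 0.16, adjusted p = 1.9e-08), and at 24 h 16.0 and 17.0 CPM against 2.94 and 2.34 CPM. The groups were separate at all 3 times and the gap widened to 6.35-fold (−2.67 ± 0.20, adjusted p = 4e-12). These levels rest on few reads, with 47 to 51 counts per palbociclib library at 15 h and 31 to 34 at 24 h.

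NDC1 had 107, 104 and 101 CPM with DMSO and 67.8, 71.2 and 67.2 CPM with palbociclib at 15 h (−0.60), and 163 and 156 CPM against 87.5 and 92.7 CPM at 24 h (−0.82 ± 0.08). Its libraries did not overlap at either time. POM121, the remaining transmembrane gene, had 70.4 and 65.1 CPM against 60.5 and 56.2 CPM at 24 h. That difference was −0.22 with an interval of −0.38 to −0.06 and missed the threshold (adjusted p = 0.065).

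Among the channel genes NUP62 separated early. It had 78.7, 76.9 and 80.6 CPM with DMSO at 12 h and 51.2, 55.7 and 52.9 CPM with palbociclib (−0.56 ± 0.07, adjusted p = 1.3e-07). At 24 h the values were 90.0 and 91.6 CPM against 50.0 and 51.5 CPM (−0.84 ± 0.08), so its palbociclib libraries stayed near the starved level of 46.2 ± 3.9 CPM (SD, n = 3). NUP98 fell only at 24 h, with 219 and 195 CPM against 158 and 151 CPM.

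Of the 6 genes of the cytoplasmic side, 0, 1 and 3 fell at 12, 15 and 24 h, with a median of −0.277 at 24 h. GLE1 had 68.0 and 69.4 CPM against 57.5 and 60.3 CPM at 24 h (−0.22, adjusted p = 0.041), a call that was lost when any one of these 4 libraries was left out. RANBP2, among the genes not called, differed by −0.00 (interval −0.15 to 0.15, adjusted p = 1). AAAS (−0.30, −0.51 to −0.09, adjusted p = 0.053) and RAE1, a messenger RNA export factor (−0.26, −0.44 to −0.07, adjusted p = 0.055), lay just outside the threshold.

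All 3 basket genes fell at 15 and 24 h. NUP153 had 163 and 157 CPM with DMSO and 103 and 108 CPM with palbociclib at 24 h (−0.61). NUP50, which binds importin alpha, had 137 and 136 CPM against 87.8 and 93.8 CPM (−0.59). TPR had 403 and 395 CPM against 296 and 294 CPM, below its 359.6, 348 and 376 CPM at 0 h. In all 3 the treatments did not overlap at 24 h, with 2 libraries in each group. The 15 h calls of TPR and AHCTF1 were lost when any one of the 6 libraries at that time was left out.

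KPNA2 was called last among the receptors. At 15 h it had 156, 161 and 156 CPM with DMSO and 134, 143 and 139 CPM with palbociclib (−0.18, adjusted p = 0.069). At 24 h it had 540.0 and 519 CPM against 143 and 158 CPM, 3.51-fold lower with palbociclib (−1.81 ± 0.08, adjusted p = 2.7e-18). Its palbociclib libraries at 24 h therefore stood where they had been at 15 h. CSE1L separated earlier: 267, 257 and 249 CPM against 212, 204 and 210.0 CPM at 12 h, and 467 and 479 CPM against 277 and 296 CPM at 24 h (−0.72). XPO1 had 462 and 442 CPM against 337 and 331 CPM at 24 h, and KPNB1 704 and 704 CPM against 506 and 544 CPM.

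In the Ran cycle both regulators of Ran were called lower from 12 h on, and RAN itself only at 24 h. The 12 h call of RANGAP1 was lost in 5 of 13 alternatives and that of RCC1 in none. For RANGAP1 these included leaving out replicate 1 or 2 of DMSO or replicate 2 of palbociclib at 12 h. RCC1 had 77.9, 79.2 and 69.1 CPM with DMSO and 50.4, 55.5 and 52.4 CPM with palbociclib at 15 h (−0.51), and 108 and 116 CPM against 67.4 and 68.9 CPM at 24 h (−0.72). RANGAP1 had 255 and 248 CPM against 147 and 147 CPM at 24 h (−0.77). RAN had 592 and 597 CPM against 451 and 506 CPM (−0.31, adjusted p = 0.008), the smallest difference of the 3. RAN's call, like those of NUP93, NUP35, NUP54, NUP214 and GLE1, did not hold under every alternative setting tried, which the 24 other calls at 24 h did. It was lost when replicate 1 of palbociclib or either DMSO library was left out, which leaves 1 library in that group.

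The drug difference widened with time in some members. The effect is taken as log2 palbociclib minus DMSO, so a lower effect is a more negative one. Tested as an interaction, 12 members had a lower palbociclib effect at 15 h than at 9 h and none a higher one (3.91% and 0.133% of all genes). NUP210 (−1.19 ± 0.23, adjusted p = 0.00066) and NUP107 (−0.61 ± 0.09, adjusted p = 2e-05) led. At an unadjusted p under 0.05 these counts were 23 and 0, and by DESeq2 11 and 0. From 15 to 24 h, 4 members had a still lower effect and none a higher one (1.92% and 1.06%): KPNA2 (−1.63 ± 0.10, adjusted p = 1.6e-12), NUP210 (−1.18 ± 0.28, adjusted p = 0.011), RANGAP1 (−0.50, adjusted p = 0.0011) and NUP50 (−0.30, adjusted p = 0.044). At an unadjusted p under 0.05 they were 18 and 0, and by DESeq2 9 and 0. Without the 5 libraries the counts were 7 for the first interval and 1, KPNA2, for the second, in which each 24 h group then held 1 library.

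Even with palbociclib most members stayed above their starved level. Against 0 h, 31 were higher and 3 lower at 9 h (34.9% and 40.8% of all genes), 30 and 3 at 12 h (35% and 40.4%), 27 and 4 at 15 h (35.1% and 39.9%) and 28 and 2 at 24 h (34.3% and 36.9%). The members' median was 0.472, 0.366, 0.436 and 0.555 at these times, against −0.123 to −0.079 over all genes. At 24 h, 10 members were at least 2-fold higher than at 0 h (13.9% of all genes). KPNA2 (2.30 ± 0.08), NUP93 (2.07) and NDC1 (1.86) were among them. The members that fell below 0 h at 24 h were NUP210 (−1.50 ± 0.21, adjusted p = 1.6e-07) and TPR (−0.29, adjusted p = 0.00025), though TPR's fall was lost when replicate 1 of palbociclib at 24 h was left out. Leaving out replicate 1 of palbociclib at 9 h gave 1 fall at that time. Leaving out replicate 1 of 0 h or any palbociclib library at 15 h gave 1 or 2 falls in place of 4.

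The gain that remained with the drug differed widely between members. Expressed as the palbociclib rise over 0 h in percent of the vehicle rise at 24 h, both in mean CPM, the median was 40.6% and 24 members kept under 50%. SEC13 (113%), RANBP2 (99.7%), SEH1L (87%), NUP93 (74.6%) and RAN (72.6%) kept most of theirs, although for RANBP2 the vehicle rise itself was small. NDC1 kept 48.6%, CSE1L 46.5%, NUP107 40%, KPNA2 24.1%, NUP62 10.1% and NUP54 5.65%. AHCTF1, NUP210, NUP214 and TPR had palbociclib means below those at 0 h. Both rises share the 0 h libraries, and these percentages are given as a description without a test.

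Per length, the order of the members changed over the course. In CPM per kilobase of exon, KPNB1 (56.7), RAN (35.5), CSE1L (32.9) and TPR (29.2) were highest at 0 h, and KPNA2 (9.78) ranked 15. At 24 h with DMSO, KPNA2 ranked 1 (168.57), followed by CSE1L (124.43), RAN (123.25) and KPNB1 (91.7). With palbociclib at 24 h the order was RAN (99.2), CSE1L (75.4), KPNB1 (68.4) and KPNA2 (48.0). NUP210 was lowest in all 3 groups, at 0.90, 2.02 and 0.32.

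Of 34 other genes of the pore and nuclear transport that are not members, 33 were tested. The list held further importins, exportins, Ran regulators, export factors and nucleoporins. At 24 h with DMSO, 26 were higher and 2 lower than at 0 h (median 0.672), where 36.7% and 38.9% of all genes were. With palbociclib against DMSO at 9, 12, 15 and 24 h, 0, 3, 6 and 12 were lower and 0, 0, 0 and 1 higher (median −0.156 at 24 h). Of all genes, 1.07%, 4.81%, 8.79% and 12.3% were lower at these times and 0.108%, 0.823%, 2.15% and 5.76% higher. At 9 h, none was higher and 2 were lower at an unadjusted p under 0.05. RANBP1, a co-activator of Ran GTP hydrolysis, rose from a mean of 37.2 to 197.9 CPM by 24 h with DMSO (2.41 ± 0.09) and was lower with palbociclib (−0.72). KPNA5, an importin alpha of another subfamily, fell by 24 h (−1.37 ± 0.21). IPO13, a receptor that works in both directions, was the gene higher with palbociclib (0.28).

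The timing of the cell cycle and of growth in these libraries is given by short gene lists for comparison. Of 10 G1/S genes, 9 were higher and 1 lower than at 0 h by 9 h with DMSO and all 10 higher from 12 h on, and all 10 were lower with palbociclib at 9, 12, 15 and 24 h (medians −1.749, −4.104, −4.351 and −2.32). Of 10 G2/M genes, 7 were higher and 3 lower than at 0 h at 12 h, 9 higher at 15 h and 10 at 24 h (median 4.843), and 4, 10, 10 and 10 were lower with palbociclib. All 10 ribosome biogenesis genes were higher from 3 h on with DMSO (median 1.558 at 6 h), and 0, 0, 0 and 2 were lower with palbociclib (median −0.193 at 24 h). The share of cells in each cell cycle phase was not measured, and its part in the members' courses was not tested.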

How the data were processed

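Poly(A) RNA of MCF10A cells was read as single ends of a stranded messenger RNA library, per the labels' protocols. TopHat2 2.1.1 with Bowtie2 2.2.9, Subread 1.5.1, FastQC 0.11.3 and the genome build GRCh38.p7 are listed in the submitters' processing notes. Per the file headers, the authors counted reads over exons of GENCODE 25 with featureCounts 1.5.1, summed by gene name, ignoring strand and leaving out multi-mapping and ambiguous reads, and the deposited unit is the raw count. Genes that overlap others or have near-identical copies are therefore uncertain.

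Groups and replicate numbers came from the labels. Counts were fitted in R 4.3.3 with edgeR 4.0.16: filterByExpr by group (15787 genes kept), TMM factors (0.927 to 1.082) and 1 quasi-likelihood model over all 31 libraries, with a mean per group (20 residual degrees of freedom). The common biological coefficient of variation was 6.55%. P-values were Benjamini-Hochberg adjusted over all tested genes, separately in each comparison, and called under 0.05. The SE was obtained by dividing a log2 fold change's size by the root of its F statistic, and intervals are normal intervals from it. CPM used TMM-scaled totals of the tested genes. DESeq2 1.42.0, other scalings, no filter, a replicate block, fits on each comparison's own libraries and leaving out libraries were alternatives. The fit was also run on simulated counts, for palbociclib against DMSO at 24 h only. Those counts were drawn independently for each library, so the simulation does not cover spread shared between libraries.

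The members, the other gene lists and the tests were chosen with earlier results of these data known. All members could be named. Values in every library are given for the members with the largest changes in each role or a change of direction, and other genes of the pathway were named by the size of their change among called genes. Promoters were taken from RefSeq tables by symbol. Protein sequences were not used here.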

Additional observations from a re-analysis of the deposited data

Results flagged for a closer look

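The palbociclib effect on these members differed between times by edgeR's interaction test. Between 9 and 15 h the effect (log2, palbociclib minus DMSO) moved by −1.19 in NUP210, −0.61 in NUP107, −0.56 in NDC1, −0.53 in RCC1, −0.48 in NUP43, −0.47 in NUP62, −0.37 in CSE1L, −0.31 in NUP93, −0.31 in NUP188, −0.28 in NUP205, −0.28 in KPNB1 and −0.27 in NUP160. Between 15 and 24 h it moved by −1.63 in KPNA2, −1.18 in NUP210, −0.50 in RANGAP1 and −0.30 in NUP50. NUP210 is thus the member for which both intervals passed the test, although the later one was lost without replicate 3 of palbociclib at 24 h, which leaves 1 library there, and without the 5 libraries. Over 19 alternatives for the first interval, the call was lost in 14 for NUP93, 8 for NUP188, 8 for NUP160, 6 for NUP205 and 6 for KPNB1, and in none for the other 7 genes. Over 17 alternatives for the second, it was lost in 12 for NUP50, 2 for NUP210 and 1 for RANGAP1, and in none for KPNA2.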

How the results depend on the processing

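Counts of members called that moved by over 1.5 times are given here, with the cause not tested unless fewer libraries or other tested genes set it. Scaling by totals alone shifted the all-gene median from −0.103 to −0.271 at DMSO 3 h, −0.056 to −0.169 at 15 h and −0.095 to −0.213 at 24 h against 0 h. With it, 14 members in place of 9 were lower at 3 h, 3 in place of 0 at 15 h, 5 in place of 3 with palbociclib at 12 h, and 1 in place of 0 for DMSO 24 h against 15 h. It changed the sign of NUP205 (−0.025) at 3 h and NUP133 (−0.001) at 15 h, which the main fit had called higher. The sign also changed in KPNB1 (−0.111) at 3 h and AHCTF1 (−0.109) at 15 h, which the main fit had not called. The cause was not tested. Without the 5 libraries, 1 member was lower at DMSO 9 h (from 3), 1 at DMSO 12 h (from 2) and 1 with palbociclib at 15 h against 0 h (from 4). DESeq2's size factors and DESeq2 itself gave 2 for the last. For palbociclib 24 h against 15 h, 7 rises and 2 falls became 4 and 1 with no filter, 2 and 0 without the 5 libraries (which leaves 1 palbociclib library at 24 h) and 4 and 1 on the comparison's own libraries. A fit on own libraries also gave 1 fall at DMSO 15 h and 1 for DMSO 24 h against 15 h, both from 0. The 12 lower effects at 15 h against 9 h became 7 with no filter and 7 without the 5 libraries. The 4 at 24 h against 15 h became 7 with DESeq2's size factors, 9 with DESeq2 and 1 without the 5 libraries.

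Replicate numbers were not taken as pairs, since not every pair's deviations correlated above 0.1: over all comparisons they correlated from −0.398 to 0.496. In DMSO at 3 to 15 h against 0 h, replicate 2 correlated from 0.271 to 0.419 and replicate 3 from 0.178 to 0.364, while replicate 1 stayed at 0.015 to 0.061. A fit with the number as a block gave 1 fall at DMSO 15 h (from 0) and 7 lower effects at 24 h against 15 h (from 4). With the block, NUP93 at 12 h, KPNA2 at 15 h and AAAS and RAE1 at 24 h were also called lower with palbociclib, giving 32 falls at 24 h.

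Leaving out 1 library at a time (at 24 h this leaves 1 in that group, with the spread taken from the other groups), members higher and lower than at 0 h numbered 16 to 19 and 7 to 9 at DMSO 3 h, 25 to 27 and 5 at 6 h, 30 to 31 and 1 to 3 at 9 h, 31 and 1 to 2 at 12 h, 32 to 33 and 0 to 1 at 15 h and 33 to 36 and 0 at 24 h. With palbociclib they were 30 to 32 and 1 to 3 at 9 h, 27 to 30 and 2 to 3 at 12 h, 26 to 29 and 1 to 3 at 15 h and 27 to 30 and 1 to 3 at 24 h. Falls against DMSO numbered 0 to 1 at 9 h, 10 to 16 at 12 h, 18 to 20 at 15 h and 25 to 30 at 24 h. DMSO 24 h against 15 h gave 19 to 22 rises and 0 falls, and palbociclib 24 h against 15 h 4 to 7 rises and 0 to 2 falls. The interactions gave 8 to 13 and 3 to 5 lower effects.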
